A study of Mus musculus with 13 samples.

Results

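RNA was read from Lin-cKit+ bone marrow (BM) cells, the fraction that holds the hematopoietic stem and progenitor cells (HSPCs). It was read for 39 type I interferon-stimulated genes. The list was made from general knowledge of the interferon response, but with earlier results of these data known. All 39 were found among the 54838 genes of the count table. The 13 mice fell into 4 groups, all with the Mx1-Cre transgene: 3 control mice with no other allele, 3 p53mut mice with 1 p53 R172H allele, 3 NrasG12D mice with 1 Nras G12D allele, and 4 NPmut mice with both alleles. All mice but the NPmut were injected 3 times with 100 μg of pI-pC (polyinosinic-polycytidylic acid) from about 6 weeks of age. The sample titles call the injected mice age-matched controls. No age at sampling or time since injection is given here. The NPmut group was sampled uninjected at the moribund stage, so that genotype, injection and stage of disease cannot be told apart in any comparison with NPmut. Each library came from 50000 sorted cells of 1 mouse. pI-pC is a mimic of double-stranded RNA that itself induces type I interferon, and it is given to mice of this kind because the *Mx1* promoter that drives Cre responds to interferon.

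Type I interferons (interferon-α and interferon-β) bind the IFNAR1 and IFNAR2 receptor chains, which activate the kinases JAK1 and TYK2. STAT2 then joins IRF9 in the complex ISGF3, which binds the interferon-stimulated response element (ISRE) of its target genes. The products of these genes sense viral RNA, degrade it, block translation and viral entry, modify proteins with ISG15, and feed back on the pathway. In BM, interferon drives dormant hematopoietic stem cells into cycle.

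The promoters are shown first because ISGF3 acts through them. RefSeq promoter windows on GRCm38.p6 (250 bases before to 50 after the annotated start) were matched by symbol for 28 of the 39 genes. An ISRE core was searched on both strands as GAAA, any 2 bases, and GAAA again, which reads TTTC, 2 bases and TTTC where the core lies on the strand opposite to the one shown, and overlapping matches were counted separately. It was found in 13 of the 28 genes against 3.99% of all 27025 gene symbols with a window, and in 3.44% of all 32851 windows. In 9 of the 13 a core lay before the start. The 6 stretches of 60 bases shown here carry these cores for genes that are described later, 5′ to 3′ on the gene's strand with the cores in capitals. Those of *Isg15* (chr4:156200856-156200915, minus strand), *Ifit1* (chr19:34640769-34640828, plus strand), *Ifit3* (chr19:34583365-34583424, plus strand), *Oas1a* (chr5:120907526-120907585, minus strand), *Oas3* (chr5:120777700-120777759, minus strand) and *Bst2* (chr8:71537565-71537624, minus strand) were as follows.
Isg15: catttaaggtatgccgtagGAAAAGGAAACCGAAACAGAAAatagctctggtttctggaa
Ifit1: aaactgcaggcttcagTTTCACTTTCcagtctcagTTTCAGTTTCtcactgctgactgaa
Ifit3: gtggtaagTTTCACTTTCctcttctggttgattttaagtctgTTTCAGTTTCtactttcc
Oas1a: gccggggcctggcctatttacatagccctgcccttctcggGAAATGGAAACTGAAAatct
Oas3: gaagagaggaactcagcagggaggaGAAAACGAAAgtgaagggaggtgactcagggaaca
Bst2: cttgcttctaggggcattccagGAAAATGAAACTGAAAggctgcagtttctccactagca
*Isg15* had 3 overlapping cores, *Oas1a* and *Bst2* had 2 overlapping cores, *Ifit1* and *Ifit3* had 2 separate cores, and *Oas3* had 1. In *Ddx58*, *Eif2ak2*, *Ifih1* and *Ifitm3* the cores lay after the start. A match describes the letters only, and the 15 genes with a window but no match, *Irf7*, *Irf9*, *Oasl1* and *Oasl2* among them, lack these letters in this window alone.

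**Figure D1:**
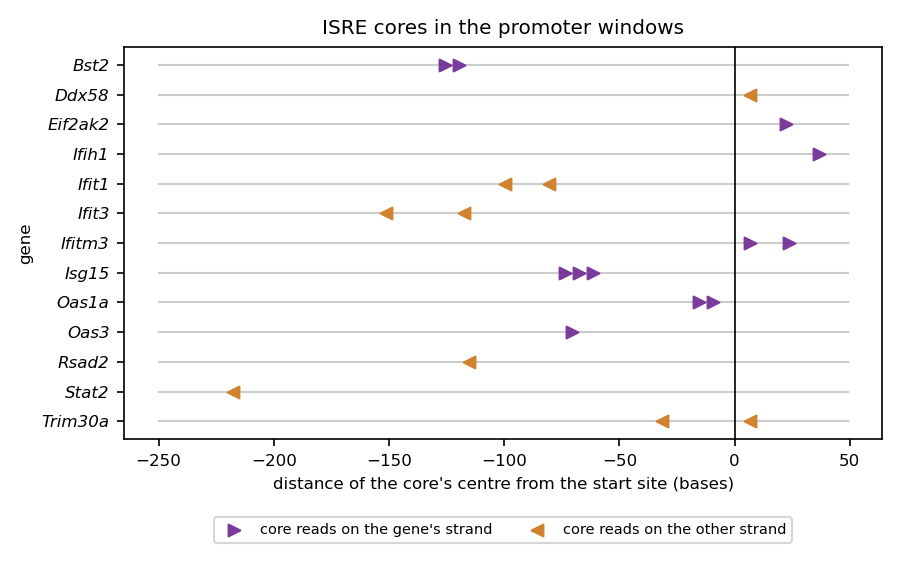
Position of each ISRE core in the promoter windows of the 13 genes that hold one, as the distance of the core's centre from the annotated start in bases. Each grey line is 1 window, right-pointing triangles are cores on the gene's strand and left-pointing triangles are cores on the other strand; *Isg15* has 3 and *Oas3* has 1.

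Library totals ran from 12576174 to 29124022 counts, and the largest and smallest were both of NPmut mice. Values are CPM, counts scaled to a common library size with TMM factors. All 39 genes passed the filter on low counts, and 17795 genes in all were tested. Reads on 1733 olfactory and vomeronasal receptor genes, which HSPCs are not known to use, made up 148 ± 46.1 CPM in control, 103 ± 40.9 in p53mut, 43.4 ± 3.76 in NrasG12D (SD, n = 3 each) and 36.0 ± 21.1 in NPmut libraries (n = 4). At that exonic density, such reads would be at most 4.45% of the counts of any of the 39 genes but *Ifit3* in any group. For *Ifit3* they would be 28.9% in control, 10.4% in p53mut, 1.05% in NrasG12D and 6.37% in NPmut libraries. Most of the OAS and IFIT genes lie in clusters, with *Oas2*, *Oas3* and *Oas1a* at chr5:120730333-120907521, *Oasl2* and *Oasl1* at chr5:114896936-114937915, and *Ifit2*, *Ifit3* and *Ifit1* at chr19:34550694-34650009 (GRCm38). The exons of 14 of the 39 genes overlap another annotated gene. *Dtx3l* and *Parp9* overlap each other on opposite strands, *Irf7* overlaps *Phrf1* and *Irf9* overlaps *Rnf31*, and close copies exist of *Ifit3* (*Ifit3b*), *Oas1a* (*Oas1g*) and *Trim30a* (*Trim30d*), so that reads of these genes may be shared.

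The 39 genes were highest in NrasG12D HSPCs and, for most of them, lowest in NPmut HSPCs. NrasG12D had the highest group mean of 37 genes, against 22.0% of all genes tested, and NPmut had the lowest mean of 28, against 31.99% of all genes. The 2 exceptions at the top were *Isg20*, highest in control, and *Ly6e*, highest in NPmut. Each mouse was summarized by the median, over the 39 genes, of its log2 difference from the control mean. This median was -0.15, 0.09 and 0.09 in the control mice and -0.07, -0.07 and 0.28 in the p53mut mice. It was 0.69, 0.81 and 1.03 in the NrasG12D mice and -0.30, -0.36, -0.71 and -0.66 in NPmut mice 1 to 4. The 3 NrasG12D mice therefore lay above and the 4 NPmut mice below every mouse of the other groups, while control and p53mut mice overlapped. In bulk RNA, fewer cells of a type and less RNA per cell cannot be told apart. The same median over all genes tested was between -0.01 and 0.01 in every mouse. Within groups the mice were not alike. NrasG12D mouse 3 was the highest of its group in 34 of the 39 genes (30.9% of all genes), p53mut mouse 3 in 29 (36.0% of all genes), and control mouse 1 and NPmut mouse 4 were the lowest of their groups in 23 each (31.3% and 31.2% of all genes).

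**Figure D2:**
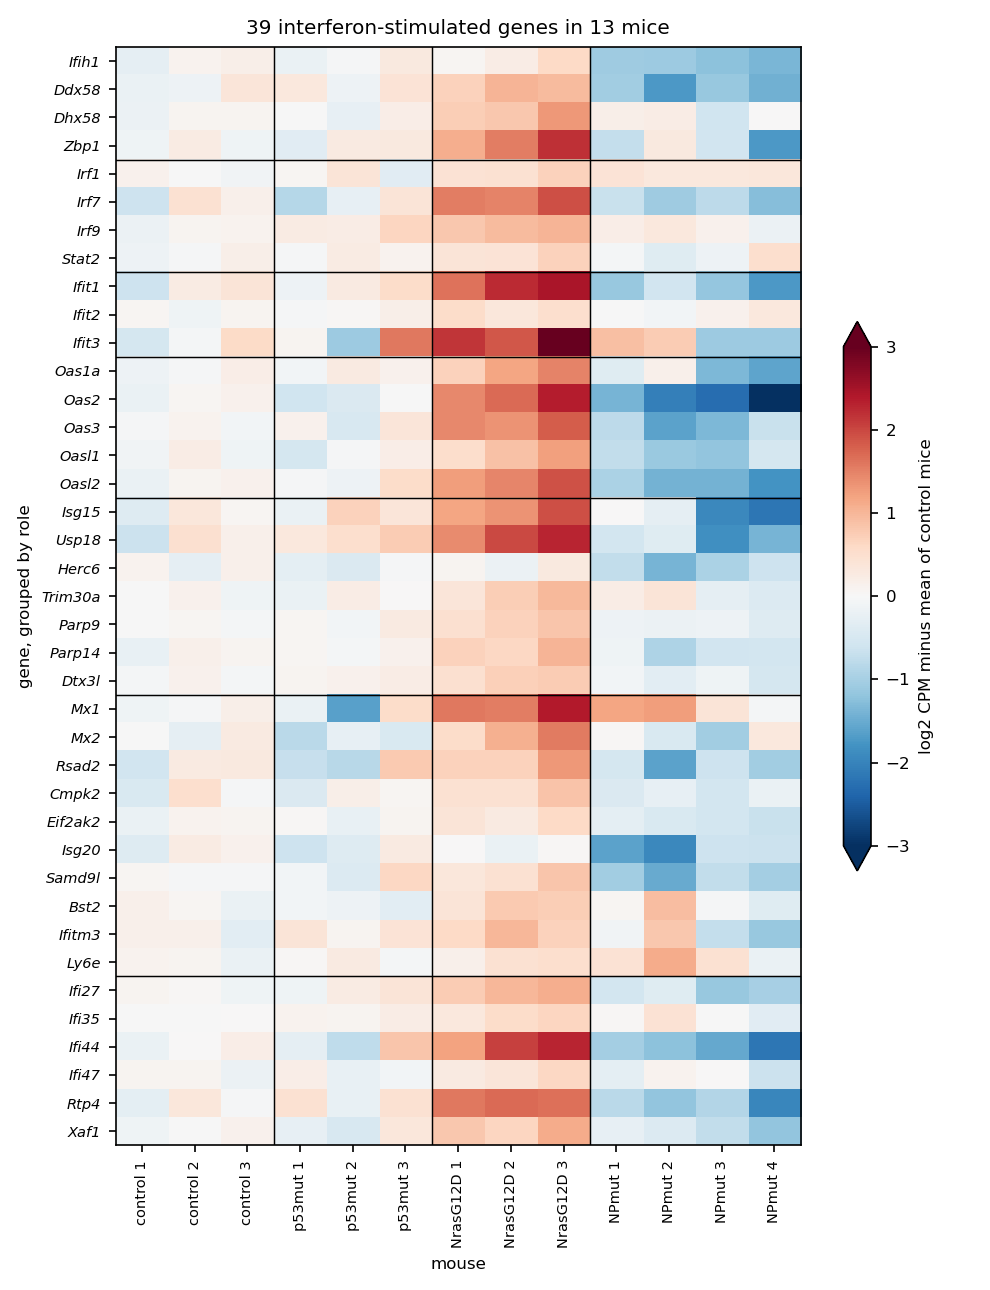
Log2 CPM of each of the 39 genes (rows, grouped by role) in each of the 13 mice (columns), as the difference from the mean of the control mice; red is higher and blue is lower, with the colours ending at 3 and -3. The NrasG12D columns are red in nearly every row, and the NPmut columns are blue in most rows and red in all 4 mice for *Irf1*.

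Levels between genes were compared per exon length, as RPKM, the CPM per kilobase of exon. In control HSPCs, *Ly6e*, a GPI-anchored surface protein, was at 89.7 ± 8.30 RPKM and *Ifitm3*, which restricts viral entry at membranes, at 41.1 ± 6.18 (SD, n = 3). Several classical antiviral genes were among the lowest, although *Eif2ak2* was at 18.1 ± 2.20 RPKM and *Bst2* at 14.9 ± 1.64. *Mx1* was at 0.630 ± 0.0905 RPKM, *Ifit1* at 1.14 ± 0.406 and *Oas2* at 1.32 ± 0.181, and *Ifit3* was the lowest at 0.0871 ± 0.0624. C57BL/6J mice, the background of these lines, carry an *Mx1* allele that gives no functional protein, and *Mx2* is annotated as a polymorphic pseudogene.

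NrasG12D and control mice, both given pI-pC, were compared for the Nras allele without the p53 allele. Their libraries also differed in the reads on receptor genes, at 107 to 198 CPM in control and 39.2 to 46.5 in NrasG12D. The part of that difference was not tested. The 39 genes were higher as a body in NrasG12D HSPCs, but whether single genes were called depended on the fit. All but 1 of the 39 had a positive log2 fold change, with a median of 0.87 (all genes, -0.01), and in 35 of them every NrasG12D mouse was above every control mouse (10.9% of all genes). None passed the edgeR test at an adjusted p under 0.05, at which 0.00562% of all genes were called higher. At an unadjusted p under 0.05, however, 33 of the 39 passed, against 1642 of all 17795 genes. The smallest adjusted p was 0.0505, of *Oasl2*. With control and NrasG12D libraries alone in the fit, 25 of the 39 were called higher (1.11% of all genes), with no filter on low counts 20 (0.383%), and with DESeq2 17 (0.509%). A replicate term gave 12 (0.253%) in the fit of all groups and 21 (0.806%) in that of the compared groups. None of the 39 was called lower in these fits. With RLE size factors 1 gene was called higher, *Oasl2* (3 of all 17795 genes), and with library totals, or with any 1 control or NrasG12D library left out, 0. *Dtx3l*, *Ifi44*, *Ifit1*, *Irf7*, *Irf9*, *Oas2*, *Oas3*, *Oasl2*, *Parp9*, *Rtp4*, *Usp18* and *Zbp1* were the 12 genes called higher in these 3 fits and in both fits with a replicate term.

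The 8 genes with the smallest p in that comparison include *Irf9*, the DNA-binding partner of STAT2, and *Irf7*, the regulator that amplifies interferon-α production. *Irf9* was at 39.2, 47.3 and 47.8 CPM in control mice and at 77.7, 86.1 and 90.9 CPM in NrasG12D mice (log2 fold change 0.92 ± 0.15, adjusted p = 0.0508). *Irf7* was at 6.49, 13.8 and 11.2 CPM in control and at 29.2, 28.4 and 38.4 CPM in NrasG12D mice (1.61 ± 0.30, adjusted p = 0.0803). The groups did not overlap for either gene. In p53mut mice *Irf9* was at 52.9, 51.8 and 69.4 CPM, between the ranges of control and NrasG12D mice, and *Irf7* was at 5.54, 8.48 and 13.2 CPM, across the control range.

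IFIT1 binds viral RNA that lacks the cap modification of host mRNA. *Ifit1* was at 1.78, 3.34 and 3.67 CPM in control, 2.51, 3.39 and 4.17 in p53mut and 8.97, 13.8 and 15.9 in NrasG12D mice (NrasG12D against control 2.13 ± 0.35, adjusted p = 0.0508). The OAS enzymes make an oligoadenylate that activates RNase L to cut RNA. *Oas2* was at 4.89, 5.93 and 6.22 CPM in control and at 15.6, 18.7 and 29.5 CPM in NrasG12D mice (1.90 ± 0.34, adjusted p = 0.061). *Oas3* was at 10.9, 12.1 and 10.5 CPM in control and at 30.7, 28.8 and 39.4 CPM in NrasG12D mice (1.56 ± 0.25, adjusted p = 0.0508). NrasG12D mouse 3 was the highest mouse for all 3 genes. OASL2 belongs to the same family, and *Oasl2* was at 12.6, 15.2 and 15.6 CPM in control and at 34.3, 40.1 and 54.7 CPM in NrasG12D mice (1.57 ± 0.23).

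*Rtp4*, a chaperone of receptor transport that interferon induces, was at 5.06, 7.91 and 6.12 CPM in control and at 18.99, 20.7 and 20.1 CPM in NrasG12D mice (1.65 ± 0.27, adjusted p = 0.0508). *Dtx3l* encodes an E3 ubiquitin ligase that pairs with PARP9. It had the smallest log2 fold change of the 8, with 121, 137 and 121 CPM in control and 176, 208 and 213 CPM in NrasG12D mice (0.65 ± 0.12, adjusted p = 0.0803). The groups did not overlap for either gene. The 4 genes of the list that did overlap between NrasG12D and control mice were *Ifih1*, *Herc6*, *Cmpk2* and *Isg20*. *Isg20*, an exonuclease, was the 1 gene with a negative value (-0.07 ± 0.32).

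**Figure D3:**
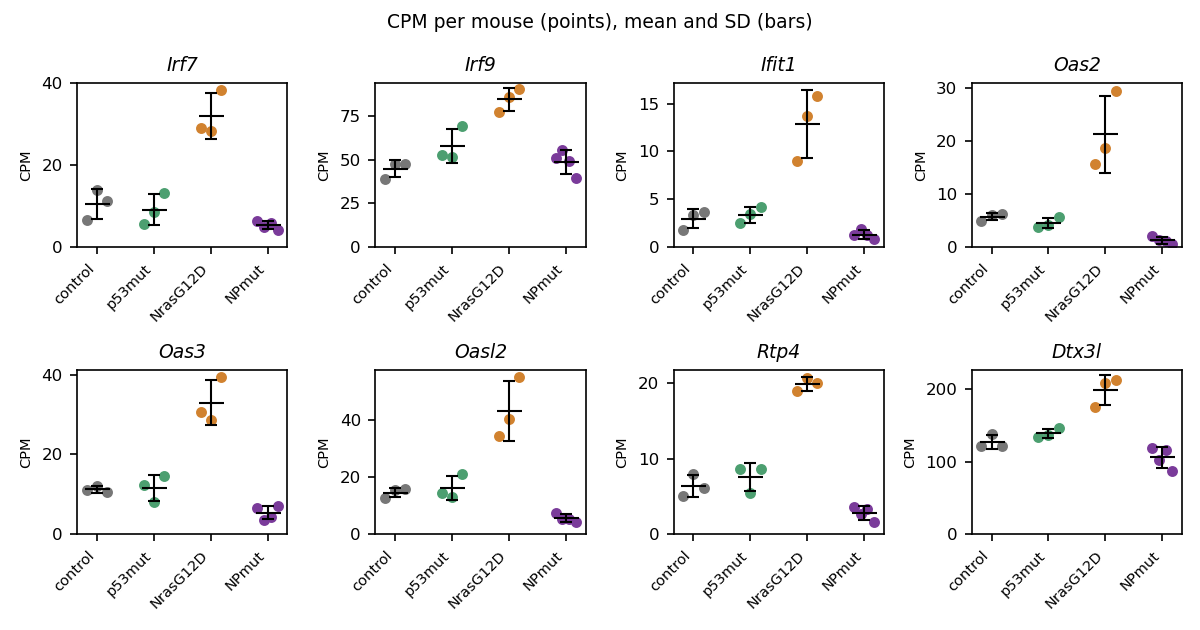
CPM of the 8 genes with the smallest p between NrasG12D and control mice. Points are mice, horizontal marks are group means and bars are SD (n = 3, and n = 4 for NPmut); in each panel every NrasG12D point is above every control point.

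In NPmut HSPCs, part of the list was lower than in control HSPCs, among it 4 OAS genes and the RNA sensors *Ifih1* and *Ddx58*. Of the 39 genes, 16 were called lower and 0 higher (edgeR, adjusted p under 0.05), against 5.54% lower and 5.38% higher of all genes. Of the 16, 11 fell by at least 2-fold (3.69% of all genes). At an unadjusted p under 0.05, 22 of the 39 passed, against 4561 of all 17795 genes. The median log2 fold change was -0.53 (all genes, 0.01), and NPmut mice lay wholly below control mice for 17 genes and wholly above for 1, *Irf1* (11.5% and 10.4% of all genes). If control mouse 2 was left out, the number of lower calls was 7 (632 of all 18337 genes tested). Without control mouse 3 it was 8 (457 of 18415). With control and NPmut libraries alone in the fit it was also 8 (426 of 17133). The main fit called 986 of all 17795 genes lower.

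Markers of other cell types moved in the same NPmut libraries. The summed CPM of 10 monocyte and macrophage markers was 251 to 272 in control and 511 to 1113 in NPmut mice, with 5 of the 10 called higher. The sum of 6 megakaryocyte markers was 125 to 200 in control and 13.6 to 69.0 in NPmut mice, and all 5 that were tested were lower. The sum of 8 erythroid markers was 491 to 669 in control and 82.1 to 350 in NPmut mice. For NrasG12D mice these sums were 233 to 327, 172.1 to 193 and 433 to 517. The 8 progenitor markers were present in all groups, with sums of 12424 to 14629 CPM in control and 12991 to 20018 in NPmut mice. In NPmut mice 1 of the 8 was called higher and 3 lower (5.38% and 5.54% of all genes). Of the lower ones, 2 fell by at least 2-fold (3.69% of all genes), and *Kit* itself was lower (-0.54 ± 0.15, adjusted p = 0.0322). Of the plasmacytoid dendritic cell markers, the cells known for the highest interferon-α output, *Siglech* was at 0 to 0.306 CPM in control and 2.04 to 2.57 CPM in NPmut mice (3.49 ± 0.70, adjusted p = 0.0057). The sum of that list of 9 was 152 to 194 CPM in control, 171 to 212 in NrasG12D and 132 to 239 in NPmut mice, and 2 of the 6 tested were called higher in NPmut mice. Neutrophil markers summed to 73.6 to 305 CPM in control, 22.8 to 82.7 in NrasG12D and 24.9 to 296 in NPmut mice, with 0 called. The B and T lymphoid defining markers *Cd79a*, *Ms4a1*, *Cd3e*, *Cd3d* and *Cd3g* were below 1 CPM in every library, while the list of 6 B lymphoid genes summed to 13.3 to 17.2 CPM in control, 8.91 to 14.0 in NrasG12D and 13.7 to 26.9 in NPmut mice and that of 6 T and NK genes to 52.5 to 67.4, 43.3 to 49.8 and 37.8 to 59.2 CPM, with 0 called in NPmut against control. The 6 stromal and endothelial markers summed to 6.49 to 10.5 CPM in control and 0.594 to 3.49 in NPmut mice, with 2 of the 3 tested called lower. The part of these differences in the values of the 39 genes was not tested.

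Of the 4 nucleic acid sensors, 2 fell. *Ifih1* encodes MDA5, the cytoplasmic sensor of long double-stranded RNA such as pI-pC. It was at 29.9, 38.4 and 40.4 CPM in control and 17.03, 16.9, 15.2 and 13.7 CPM in NPmut mice (-1.20 ± 0.16, adjusted p = 0.00053). *Ddx58* encodes RIG-I, which senses RNA with 5′ triphosphates, and was at 20.1, 20.8 and 29.97 CPM in control and 11.3, 6.98, 10.5 and 8.48 CPM in NPmut mice (-1.34 ± 0.20, adjusted p = 0.00088). For both genes the NPmut mice lay below every mouse of the other groups. *Dhx58*, which encodes LGP2 of the same helicase family, was at 13.6, 16.4 and 16.5 CPM in control and 17.4, 17.9, 10.2 and 15.5 CPM in NPmut mice (-0.02 ± 0.20, adjusted p = 0.96). *Zbp1*, a sensor of Z-form nucleic acids, was at 3.05, 3.95 and 3.06 CPM in control and 1.97, 4.09, 2.20 and 0.933 CPM in NPmut mice (-0.50 ± 0.39, adjusted p = 0.451).

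Of the transcription factors, *Irf7* fell to 6.27, 4.74, 5.79 and 4.07 CPM in NPmut mice (-1.003 ± 0.29, adjusted p = 0.0366), all of them below the lowest control mouse, and the call was lost in 6 of 15 other fits. *Irf9* (0.12 ± 0.14), *Stat2* (0.00 ± 0.18) and *Irf1* (0.34 ± 0.14) did not pass the test (adjusted p = 0.618, 0.993 and 0.147). Of the IFIT genes, *Ifit1* fell to 1.21, 1.85, 1.18 and 0.763 CPM (-1.19 ± 0.34, adjusted p = 0.0359), with NPmut mouse 2 above control mouse 1, and the call was lost in 7 of 14 other fits. *Ifit2* (0.09 ± 0.12) and the barely detected *Ifit3* (0.30 ± 1.10, 0 to 0.354 CPM in NPmut mice) did not pass.

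Of the 5 OAS genes, 4 fell. *Oas2* had the largest fall of the 39 genes, to 2.07, 1.27, 1.07 and 0.509 CPM in NPmut mice (-2.15 ± 0.33, adjusted p = 0.00118). *Oas3* fell to 6.47, 3.59, 4.29 and 6.96 CPM (-1.09 ± 0.24, adjusted p = 0.00995), and *Oasl2* to 7.43, 5.28, 5.31 and 4.07 CPM (-1.38 ± 0.22, adjusted p = 0.00155). *Oasl1*, which restrains translation of *Irf7* mRNA, was at 7.18, 9.14 and 7.14 CPM in control and 4.60, 3.51, 3.38 and 5.34 CPM in NPmut mice (-0.90 ± 0.24, adjusted p = 0.0248). These 4 genes separated NPmut from control mice without overlap. *Oas1a* was at 5.81, 8.33, 2.90 and 2.46 CPM in NPmut mice, with mouse 2 inside the control range (-0.61 ± 0.34, adjusted p = 0.275).

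ISG15 is a ubiquitin-like modifier, HERC6 is its ligase in the mouse, and USP18 removes it and also binds IFNAR2 to dampen signaling. *Herc6* fell from 26.9, 20.8 and 27.9 CPM in control to 14.96, 9.49, 12.98 and 16.2 CPM in NPmut mice (-0.92 ± 0.19, adjusted p = 0.00609). *Isg15* (-0.83 ± 0.51, adjusted p = 0.331) and *Usp18* (-0.99 ± 0.36, adjusted p = 0.099) did not pass. *Parp14*, a mono-ADP-ribosyltransferase, was at 61.6, 79.8 and 75.8 CPM in control and 66.1, 37.8, 48.3 and 48.9 CPM in NPmut mice (-0.53 ± 0.16, adjusted p = 0.0478). NPmut mouse 1 overlapped the control mice there, and the call was lost in 9 of 15 other fits. *Trim30a*, *Parp9* and *Dtx3l* were not called, with log2 fold changes of 0.02, -0.22 and -0.25.

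Among the 10 antiviral effectors, 3 fell. *Eif2ak2* encodes PKR, the RNA-activated kinase that halts translation, and was at 77.5, 96.1 and 94.6 CPM in control and 72.9, 64.6, 60.9 and 56.4 CPM in NPmut mice (-0.49 ± 0.12, adjusted p = 0.0197). *Isg20* was at 11.95, 18.7 and 17.2 CPM in control and 5.05, 4.01, 10.1 and 9.92 CPM in NPmut mice (-1.15 ± 0.31, adjusted p = 0.0269). *Samd9l*, which restrains translation and the growth of hematopoietic cells, was at 41.6, 38.9 and 38.3 CPM in control and 19.3, 13.8, 23.6 and 19.6 CPM in NPmut mice (-1.06 ± 0.22, adjusted p = 0.00738). None of the 3 overlapped between the groups. The other 7 ranged from -0.98 (*Rsad2*) to 0.82 (*Mx1*), none of them called. *Mx1*, whose promoter drives the Cre transgene in all groups, was at 2.07, 2.22 and 2.599 CPM in control and 5.31, 5.59, 3.00 and 2.21 CPM in NPmut mice (adjusted p = 0.263).

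Of the 6 remaining genes, *Ifi27*, *Ifi44* and *Rtp4* fell. *Ifi27*, a mitochondrial and nuclear membrane protein, was at 17.6, 17.2 and 15.3 CPM in control and 11.4, 12.9, 7.56 and 8.31 CPM in NPmut mice (-0.73 ± 0.19, adjusted p = 0.0212). *Ifi44* was at 5.35, 6.12 and 6.98 CPM in control and 2.93, 2.55, 2.04 and 1.27 CPM in NPmut mice (-1.46 ± 0.37, adjusted p = 0.0211). *Rtp4* was at 3.54, 2.70, 3.32 and 1.53 CPM in NPmut mice (-1.18 ± 0.26, adjusted p = 0.0102). No NPmut mouse reached the control range in these 3 genes. *Ifi35*, *Ifi47* and *Xaf1* had log2 fold changes of 0.06, -0.18 and -0.60 and were not called.

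**Figure D4:**
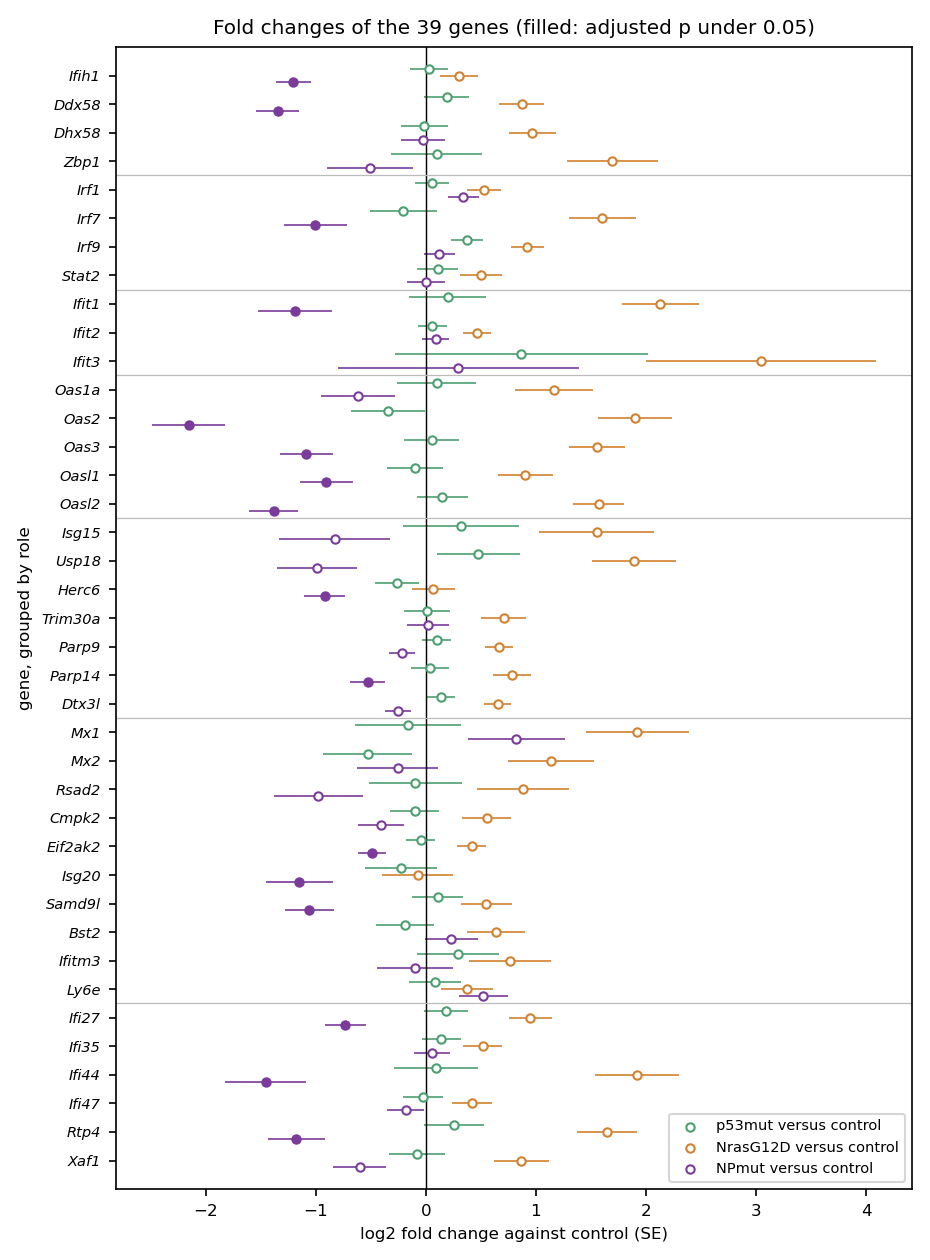
Log2 fold change of each of the 39 genes against control, with its SE as a bar, for p53mut, NrasG12D and NPmut mice; filled points passed the edgeR test at an adjusted p under 0.05. The filled points are the 16 genes called lower in NPmut mice, and the NrasG12D points lie to the right of 0 for 38 genes.

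NPmut and NrasG12D mice differ in the p53 allele, and in injections and stage of disease. Of the 39 genes, 30 were lower in NPmut HSPCs and 0 higher, 21 of them by at least 2-fold (4.97% and 2.6% of all genes were called lower at these thresholds and 3.92% were called higher). The median was -1.39 (all genes, 0.04), and 33 genes did not overlap between the groups (11.2% of all genes). All 4 sensors, all 5 OAS genes and all 7 genes of the ISG15, ubiquitin and ADP-ribosylation role were called. *Oas2* had the largest difference (-4.06 ± 0.34, adjusted p = 3.68e-05), followed by *Ifi44* (-3.38 ± 0.37) and *Ifit1* (-3.32 ± 0.33). Of the 30 genes, 14 had not passed against control. They included *Usp18* (-2.88 ± 0.36), *Isg15* (-2.38 ± 0.49), *Zbp1* (-2.20 ± 0.38), *Rsad2* (-1.86 ± 0.40), *Oas1a* (-1.78 ± 0.33) and *Xaf1* (-1.47 ± 0.24), and the others were *Dhx58*, *Irf9*, *Trim30a*, *Cmpk2*, *Dtx3l*, *Parp9*, *Ifi47* and *Mx2*, between -1.39 (*Mx2*) and -0.61 (*Ifi47*). The 9 genes that were not called were *Irf1*, *Stat2*, *Ifit2*, *Ifit3*, *Mx1*, *Bst2*, *Ifitm3*, *Ly6e* and *Ifi35*. Among the 13 genes with an ISRE core in the promoter window, 9 were called lower and the median was -1.78, against 12 and -0.99 for the 15 genes with a window and no core and 9 and -1.39 for the 11 genes with no window. This split was not tested.

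The genes that were not called between NPmut and control HSPCs included several well-known interferon targets. *Mx1* was at 1.99, 0.664 and 3.42 CPM in p53mut and 7.12, 6.81 and 12.3 CPM in NrasG12D mice, so that NPmut mice 1 to 3 lay between control and NrasG12D mice. *Isg15* was at 1.15, 1.98 and 1.63 CPM in control, 3.65, 4.13 and 6.21 in NrasG12D and 1.57, 1.27, 0.322 and 0.254 in NPmut mice, with NPmut mice 3 and 4 below all others. For *Usp18* the same 2 mice were the lowest, at 2.36, 5.25 and 4.18 CPM in control, 10.1, 15.2 and 18.5 in NrasG12D and 2.53, 2.89, 0.965 and 1.36 in NPmut mice. *Irf1*, a factor that interferon-γ induces strongly, was at 40.5, 36.6 and 34.6 CPM in control, 50.4, 51.4 and 59.6 in NrasG12D and 49.2, 46.4, 46.3 and 46.99 in NPmut mice. Both of the latter groups were above the control range.

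*Ly6e* was at 352, 348 and 285 CPM in control and 445, 706, 450.2 and 284 CPM in NPmut mice, and it was called higher in NPmut mice when NPmut mouse 4, the lowest of the 4, was left out. *Ifit3* was at 0.0575, 0.124 and 0.255 CPM in control and 0.984, 0.786 and 2.07 CPM in NrasG12D mice, the largest fitted log2 fold change between these groups (3.05 ± 1.04) on very few counts. Group means ± SD in control, NrasG12D and NPmut mice were 27.5 ± 3.27, 38.99 ± 4.59 and 27.7 ± 7.62 CPM for *Stat2*, and 25.2 ± 2.01, 34.8 ± 2.44 and 26.9 ± 3.30 CPM for *Ifit2*. They were 33.01 ± 1.38, 52.5 ± 6.47 and 28.4 ± 2.08 CPM for *Parp9*, and 45.8 ± 4.08, 74.8 ± 15.5 and 46.3 ± 12.4 CPM for *Trim30a*, which encodes an antiviral ubiquitin ligase of the TRIM family. For each of these 4 genes NrasG12D had the highest mean.

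Among the remaining effectors, *Rsad2*, which encodes viperin, had means of 4.87 ± 1.53, 8.99 ± 2.37 and 2.48 ± 0.806 CPM in the same order of groups. Its genomic neighbour *Cmpk2*, a nucleotide kinase, had 23.1 ± 7.70, 33.8 ± 5.52 and 17.4 ± 1.97 CPM. *Bst2*, which encodes tetherin, had 13.03 ± 1.67, 20.3 ± 2.95 and 15.2 ± 6.40 CPM, and *Ifitm3* had 26.96 ± 4.68, 45.8 ± 6.73 and 25 ± 15.6 CPM. NPmut mouse 2 was the highest of the NPmut mice for *Bst2*, *Ifitm3*, *Ly6e* and *Ifi35*. *Mx2* had 2.04 ± 0.390, 4.52 ± 1.57 and 1.74 ± 0.717 CPM. *Ifi35* had 14.5 ± 0.189, 20.7 ± 2.51 and 15 ± 3.37 CPM, *Ifi47*, an immunity-related GTPase, 30.9 ± 3.24, 41.4 ± 5.38 and 27.1 ± 5.97 CPM, and *Xaf1*, a proapoptotic factor, 9.17 ± 0.853, 16.8 ± 2.76 and 6.00 ± 1.62 CPM.

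In p53mut against control HSPCs, the 39 genes had a median log2 fold change of 0.06 (all genes, 0.00), from -0.53 (*Mx2*) to 0.87 (*Ifit3*, which had at most 0.637 CPM). None was called (0% of all genes were called in either direction). An unadjusted p under 0.05 was found for 1 gene, *Irf9* (0.38 ± 0.15), and for 415 of all 17795 genes. DESeq2 also called none of the 39. *Irf9* and *Ifi35* were the 2 genes whose p53mut mice lay wholly above the control mice (5.47% of all genes). Against p53mut, NPmut HSPCs had 16 of the 39 genes lower and 0 higher (5.14% and 4.81% of all genes), with a median of -0.57. The number lower was 7 without p53mut mouse 3, which was the highest of its group for most of the genes. It was 6 with only the compared groups in the fit. Over all genes, 915 were called lower in the main fit, 363 without that mouse and 332 with only the compared groups. NrasG12D against p53mut gave a positive value for all 39 genes, a median of 0.77 and 33 genes without overlap (6.75% of all genes), with 0 calls by edgeR and 12 by DESeq2 (0% and 0.176% of all genes). It was 16 with no filter (0.133%), 5 with only the compared groups (0.112%), 5 with a replicate term over all groups (0.0337%) and 8 with that term in the compared groups (0.0994%). The smallest adjusted p by edgeR was 0.0951, and 32 of the 39 genes had an unadjusted p under 0.05, against 861 of all 17795 genes.

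How far NPmut lay from an additive effect of the 2 alleles was tested as an interaction term on the log2 scale. It was negative in 38 of the 39 genes. Of these, 18 passed the test and none of the positive side did (1.23% of all genes were called negative and 0.506% positive). The median was -1.35 (all genes, 0.05). The 18 genes included 4 of the 5 OAS genes, *Ifit1*, *Ifi44*, *Usp18* and *Rtp4* with terms of -3.72 to -1.71, and *Irf9*, *Parp9*, *Dtx3l* and *Eif2ak2* with terms of -1.17 to -0.86. Since NPmut mice alone were not injected with pI-pC and alone were moribund, this term holds the injections and the stage of disease too. Leaving out each library gave 15 to 23 negative calls, and 56 to 409 over all genes (219 in the main fit).

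Within groups, the genes varied together. After the group means were taken out, the log2 CPM of each gene was correlated with the mean of the other 38 over the 13 mice. The median Pearson r was 0.67, and 23 of the 39 were above 0.5 (5.38% of all other genes, whose median was 0.01 against the mean of the 39). *Oasl2* (r = 0.93), *Ifih1* (0.92) and *Xaf1* (0.89) were closest to that mean. *Ifit2* (-0.36), *Irf1* (-0.29), *Stat2* (-0.18), *Isg20* (-0.17) and *Herc6* (-0.01) did not follow it. The points share libraries and their scaling, and no test was made.

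Outside the 39, the lists of interferon receptors and kinases, of sensing genes and of negative regulators had no gene called lower in NPmut than in control HSPCs. The 21 interferon ligand genes together had 1 to 17 counts per library, with no gene above 5 counts in any, so that ligand mRNA was not measurable at this depth in the sorted cells. Of 10 receptor and kinase genes tested, 3 were higher and 0 lower in NPmut than in control HSPCs (5.38% higher and 5.54% lower of all genes). *Ifnar1* was at 60.5, 52.6 and 54.7 CPM in control, 64.95, 76.1 and 78.5 in NrasG12D and 82.98, 75.9, 78.3 and 68.5 in NPmut mice (NPmut against control 0.45 ± 0.11, adjusted p = 0.0149). *Ifnar2* was at 76.9, 78.7 and 72.4 CPM in control and 127, 151, 126 and 89.7 CPM in NPmut mice (0.70 ± 0.15, adjusted p = 0.0089), and *Ifngr2*, a chain of the interferon-γ receptor, was at 27.7, 31.3 and 22.8 CPM in control and 53.8, 71.6, 43.97 and 41.6 CPM in NPmut mice (0.96 ± 0.19, adjusted p = 0.00584).

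Of 16 genes for nucleic acid sensing, adaptors and kinases outside the 39, 3 rose in NPmut against control HSPCs and 0 fell (5.38% and 5.54% of all genes), while *Ifih1* and *Ddx58* of the 39 fell. *Irf8*, a factor of monocyte and dendritic cell development, went from 130.0, 141 and 134 CPM in control to 489.7, 616, 390.2 and 445 CPM in NPmut mice (1.85 ± 0.23, adjusted p = 0.00044). *Irf5*, which acts downstream of Toll-like receptors, went from 10.6, 11 and 9.28 to 43.7, 63.7, 39.8 and 41.4 CPM (2.20 ± 0.23, adjusted p = 0.000103), and *Tlr9*, a receptor for unmethylated CpG DNA, from 2.01, 2.72 and 1.68 to 8.95, 6.71, 10.2 and 2.88 CPM (1.76 ± 0.44, adjusted p = 0.0187). For *Irf5* and *Irf8* the NPmut mice lay above every other mouse. Monocyte and macrophage markers were higher in the same libraries (511 to 1113 CPM in sum, against 251 to 272 in control), and their part in these values was not tested. Of 9 negative regulators tested, *Ptpn6*, the phosphatase SHP-1, was the 1 called (0.55 ± 0.16, adjusted p = 0.0396). In NrasG12D against control HSPCs, none of these genes was called (adjusted p of at least 0.0997 for the sensing list and 0.175 for the receptors).

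**Figure D5:**
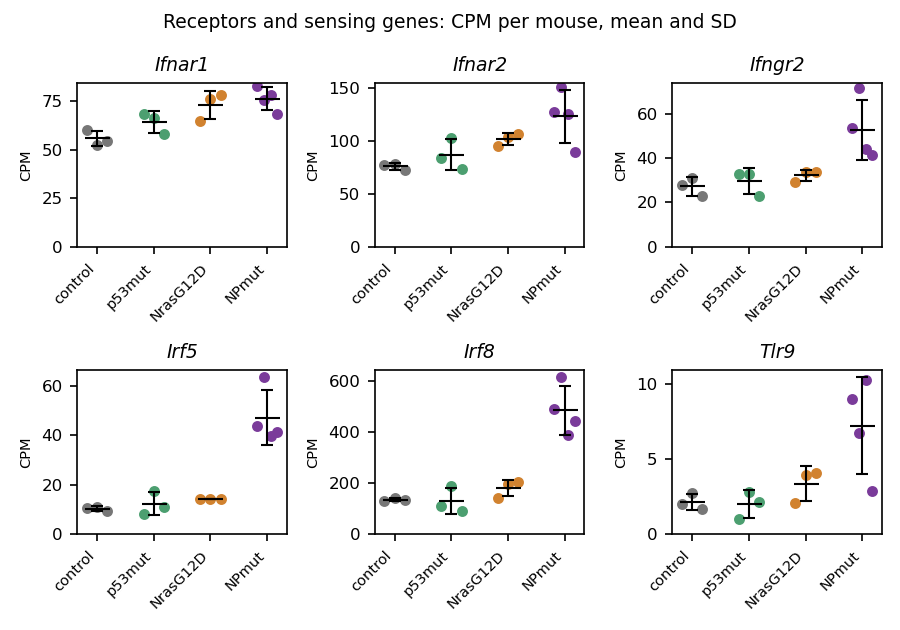
CPM of both chains of the type I interferon receptor, the interferon-γ receptor chain *Ifngr2*, and 3 sensing genes called higher in NPmut than in control mice. Points are mice, marks are means and bars are SD; *Irf5* and *Irf8* of the 4 NPmut mice are above all other mice.

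A further list of 35 interferon-stimulated genes outside the 39, of which 32 were tested, had 4 genes higher and 3 lower in NPmut against control HSPCs (5.38% and 5.54% of all genes) and a median of -0.11. *Parp12* (-1.32 ± 0.19, adjusted p = 0.0008), *Oas1b* (-1.51 ± 0.38, adjusted p = 0.0187) and *Pml* (-0.88 ± 0.13, adjusted p = 0.000702), the scaffold of PML nuclear bodies, were lower. The nuclear body genes *Sp100* (0.42 ± 0.10) and *Sp110* (0.48 ± 0.09) were higher (adjusted p = 0.0186 and 0.00514), and so were the Schlafen gene *Slfn2* (2.09 ± 0.42, adjusted p = 0.00731) and *Ms4a4c* (2.32 ± 0.38, adjusted p = 0.00181). Against NrasG12D HSPCs, 14 of the 32 were lower and 1 was higher in NPmut HSPCs (4.97% and 3.92% of all genes). In NrasG12D against control mice the median was 0.55, with 20 genes higher without overlap (10.9% of all genes) and 0 called by edgeR.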

How the data were processed

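RNA of Lin-cKit+ BM cells from 13 mice was read as whole-number counts per gene (54838 genes). Per the labels, libraries were made with the SMARTer Stranded Total RNA-Seq Pico kit, and the submitters' processing notes name STAR 2.6.1d, R 3.6.1, DESeq2 1.26.0 and the build GRCm38.p6. The counting program and its strand setting are not given in the sources used here. The authors deposited raw counts with no normalization. The genotype field of the NrasG12D mice spells the allele G21D and their titles G12D, and the titles were followed.

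Genes passing filterByExpr were fitted over all 13 libraries with edgeR 4.0.16 (R 4.3.3; TMM factors, robust quasi-likelihood test), with Benjamini-Hochberg adjustment over the 17795 genes tested and calls at an adjusted p under 0.05. Values after ± are standard errors beside log2 fold changes and SDs elsewhere. CPM was computed on TMM-scaled totals, and log2 CPM used a prior count of 2. RPKM was computed on unscaled library totals and exonic length. The code was tested on simulated data. The members and lists were chosen with earlier results of these data known. Mouse values were given for members called in NPmut or NrasG12D against control, or for the 8 of smallest p, and for others chosen after their values were seen. Pathway genes were named if called in those comparisons, with Ifnar1 and Ifnar2 always. Alternatives were RLE and library-total scaling, no filter or at least 10 counts in every library, DESeq2 1.42.0, only the compared groups, a replicate term, a 2-fold minimum and each library left out. Control and p53mut mice with the same number deviated together (correlations 0.152 to 0.166 across genes). In every other pair of groups at least 1 same-number correlation was negative. The mice of number 2, however, reached 0.257 between control and NPmut and 0.294 between NrasG12D and NPmut. Mice of different numbers reached 0.239 (control mouse 3 and NPmut mouse 1). The main fit has no replicate term, and whether mice of the same number share more than the number was not tested. A few items are not reported here. Promoter windows came from RefSeq on GRCm38.p6.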

Additional observations from a re-analysis of the deposited data

Results flagged for a closer look

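In NPmut mouse 4, *Parp9* was at 25.3 CPM, against 29.1 to 29.6 CPM in the other 3 NPmut mice. The gap was 0.877 of the range, past the limit for 4 values. Of the 39 genes checked in this group, it was the 1 past that limit, and chance alone passes it in about 1 of 20.

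The effect of both alleles together differed from the sum of the single-allele effects in 18 genes by edgeR's interaction test. The terms, on the log2 scale, were -1.53 for *Ifih1* and -2.40 for *Ddx58* among the sensors, and -2.40 for *Irf7* and -1.17 for *Irf9* among the transcription factors. They were -3.51 for *Ifit1*, -3.72 for *Oas2*, -2.70 for *Oas3*, -1.71 for *Oasl1* and -3.10 for *Oasl2*. In the ISG15, ubiquitin and ADP-ribosylation role they were -3.36 for *Usp18*, -0.98 for *Parp9*, -1.35 for *Parp14* and -1.05 for *Dtx3l*. The effectors *Eif2ak2* and *Samd9l* had -0.86 and -1.72, and *Ifi27*, *Ifi44* and *Rtp4* had -1.87, -3.47 and -3.08. NPmut mice were the only group without pI-pC and the only moribund group. Injection, stage of disease and genotype cannot be told apart in these terms.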

How the results depend on the processing

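For NPmut against control (16 genes lower, 0 higher), only the compared groups in the fit gave 8 lower (426 of all genes). A replicate block in that fit gave 10 lower and 1 higher (725 and 798 of all genes). The replicate block over all groups gave 1 higher (1363 of all genes), and the gene called higher was *Ly6e* in each block fit. Leaving out 1 library gave 7 to 16 lower and 0 to 1 higher (457 to 1064 and 356 to 1102 of all genes). *Ddx58*, *Herc6*, *Ifih1*, *Oas2*, *Oas3*, *Oasl2* and *Samd9l* were called lower in every other fit that tested them, with *Herc6* short of the 2-fold minimum. Of the other 9, *Parp14* lost its call in 9 fits, *Ifit1* in 7, *Irf7* in 6, *Oasl1* and *Ifi27* in 5, *Eif2ak2* and *Isg20* in 4, *Rtp4* in 3 and *Ifi44* in 2. For NPmut against p53mut (16 lower, 0 higher), a 2-fold minimum gave 10 (551 of all genes) and only the compared groups 6 (332). The replicate block in that fit gave 9 lower and 1 higher (718 and 685 of all genes). No filter on low counts gave 1 higher (*Mx1*, 1282 of all genes) and the replicate block over all groups 1 higher (*Ly6e*, 1080 of all genes). Leaving out 1 library gave 7 to 15 lower and 0 to 1 higher (363 to 1040 and 287 to 964 of all genes).

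For NrasG12D against control (0 called), RLE scaling gave 1 higher (3 of all genes), no filter 20 (172) and DESeq2 17 (109). Only the compared groups gave 25 (183), the replicate block over all groups 12 (45), and that block in the compared groups 21 (133). For NrasG12D against p53mut (0 called), no filter gave 16 higher (60 of all genes), DESeq2 12 (30) and only the compared groups 5 (18). The replicate block over all groups gave 5 (6), and that block in the compared groups 8 (16). Leaving out 1 library gave 24 to 32 lower for NPmut against NrasG12D (410 to 983 of all genes). For the interaction term it gave 15 to 23 (56 to 409 of all genes). It gave 0 of the 39 in the comparisons of NrasG12D and p53mut with control and with each other. The block changed no other call by more than 1.5 times, p53mut against control included, where every fit called 0 of the 39. The cause of these changes was not tested.

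Library-total scaling moved the median of all genes in NPmut against control from 0.01 to -0.11 and that of the 39 genes from -0.53 to -0.64. Of the 39 genes 16 were still lower, while the lower calls over all genes went from 986 to 1350. Groups of 3 or 4 mice and, for *Ifit3*, *Mx2* and *Isg15*, low counts limit the precision.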
